A study of Mus musculus with 77 samples.

Results

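The 10 core clock genes Arntl (also called Bmal1), Clock, Npas2, Per1, Per2, Per3, Cry1, Cry2, Nr1d1 and Nr1d2 were followed in the livers of mice without iron regulatory protein 1 or 2 (IRP1, IRP2) and of their controls. They were taken by name, and all 10 were found among the 25266 genes counted and among the 10696 genes that passed the filter on low counts. A pair of libraries was made from each liver: total RNA, and ribosome-protected fragments (RPF), the stretches of mRNA that a ribosome shields from nuclease. A level is given in CPM, counts on the coding sequence (CDS) scaled by the upper quartile to a common library total. Differences between groups are given on the log2 scale with their standard error (SE).

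The mammalian clock is a loop of transcription and translation. CLOCK, or NPAS2 in its place, pairs with BMAL1 and switches on the Per and Cry genes, whose proteins return to the nucleus and repress that pair. REV-ERBα and REV-ERBβ, the products of Nr1d1 and Nr1d2, form a side loop in which they repress Arntl. In the liver the loop runs in nearly every hepatocyte, and feeding time is one of the cues that set it.

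The 24 mice were adult males of 12 to 24 weeks on the C57BL/6J background, kept for at least 8 days in 12 h of light and 12 h of darkness with free access to food. Liver was taken at zeitgeber time (ZT) 5, which is 5 h after the lights came on, or at ZT12, when they went off. Aco1-/- mice carry the tm1.1Mwh allele of Aco1, the gene of IRP1, and Ireb2-/- mice the tm1.2Mwh allele of Ireb2, the gene of IRP2. Each line had its own controls, Aco1+/+ or Ireb2+/+, and there were 3 mice for each of the 4 genotypes at each ZT. None of the groups was stated to carry a mutated clock gene. With a pair of time points, neither phase nor amplitude of a rhythm can be read.

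The CDS counts ranged from 852293 to 3993492 in the 24 RNA libraries and from 2448915 to 13439600 in the 24 RPF libraries. Aco1 footprints had a median of 90.6 CPM in Aco1-/- and 499 CPM in Aco1+/+ livers, and Ireb2 footprints 38.2 CPM in Ireb2-/- and 77.8 CPM in Ireb2+/+ livers. The RNA of Ireb2 had a median of 118 CPM in Ireb2-/- and 130 CPM in Ireb2+/+ livers, and its difference did not pass at either ZT. Hepatocyte markers summed to between 106286 and 162159 CPM in every RNA library (4 of 5 listed genes were in the files), and 1 of the 2 lymphocyte genes in the files stood at 0 throughout. With time of day, the RNA of 1 of 4 sinusoidal endothelial markers was lower at ZT12, beside 12.5% of all tested genes that were lower in RNA. In RPF 1 of 4 hepatocyte markers was higher, and 2 of 3 cholangiocyte, 1 of 4 sinusoidal and 1 of 4 stellate markers were lower at ZT12, beside 31.8% of all tested genes that passed in either direction. The part of these markers in the clock values was not tested. In whole liver, fewer cells of a type and less RNA per cell cannot be told apart.

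On GRCm38.p6 the activators lie with Arntl at chr7:113178471-113314126, Clock at chr5:76209868-76305603 and Npas2 at chr1:39193702-39363240. The period genes lie with Per1 at chr11:69095108-69109965, Per2 at chr1:91415977-91459351 and Per3 at chr4:150997018-151044707, and the cryptochromes with Cry1 at chr10:85131700-85185054 and Cry2 at chr2:92403646-92434085. The receptor genes lie with Nr1d1 at chr11:98767932-98775377 and Nr1d2 at chr14:18204056-18239106. The clock factors bind short DNA motifs, so the promoters of members that carry such letters are shown for reference beside the values. The windows are from RefSeq on GRCm38.p6 and reach from 250 bases before to 50 bases after an annotated start (13 windows for the 10 genes, 32851 in all). The motifs were searched on both strands. CACGTG, the E-box of CLOCK:BMAL1, was found in the windows of Per1 and Cry1 and in 7.15% of all windows. CACGTT, the E′-box, read as AACGTG on the other strand, was found for Cry1, Cry2 and Nr1d1 and in 4.68% of all. TTATGTAA or TTACGTAA, the D-box of the DBP, TEF and HLF factors, was found for Per3 alone among the members and in 1.06% of all. TAGGTCA or TGGGTCA, the core of the element that REV-ERB receptors bind, was found for Arntl alone among the members and in 6.45% of all. TGACGTCA, the cyclic AMP response element, was in none of the members' windows and in 1.79% of all. No letters matched for Clock, Npas2, Per2 and Nr1d2, which says only that these exact letters were not in those windows. Capitals mark the matches, which did not overlap each other. The 250 bases before the start are given 5′ to 3′ on the gene's strand, and for Arntl only the match, 31 bases after the start, with 10 bases on each side.
Per1, chr11:69098699-69098948, + strand: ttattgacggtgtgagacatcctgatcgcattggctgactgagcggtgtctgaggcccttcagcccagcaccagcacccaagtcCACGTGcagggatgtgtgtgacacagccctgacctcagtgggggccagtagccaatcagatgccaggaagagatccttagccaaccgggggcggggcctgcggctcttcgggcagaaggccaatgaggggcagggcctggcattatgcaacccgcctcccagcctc
Cry1, chr10:85185055-85185304, - strand: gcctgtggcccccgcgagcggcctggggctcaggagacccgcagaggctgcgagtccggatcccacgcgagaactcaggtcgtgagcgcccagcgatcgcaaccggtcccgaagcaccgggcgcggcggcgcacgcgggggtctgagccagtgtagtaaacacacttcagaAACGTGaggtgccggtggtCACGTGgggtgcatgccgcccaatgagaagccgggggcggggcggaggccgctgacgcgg
Cry2, chr2:92434070-92434319, - strand: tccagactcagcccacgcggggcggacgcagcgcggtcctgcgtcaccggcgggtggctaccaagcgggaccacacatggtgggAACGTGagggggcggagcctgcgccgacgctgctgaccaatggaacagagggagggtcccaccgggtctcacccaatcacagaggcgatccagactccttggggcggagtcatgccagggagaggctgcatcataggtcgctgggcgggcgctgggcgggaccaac
Per3, chr4:151044666-151044915, - strand: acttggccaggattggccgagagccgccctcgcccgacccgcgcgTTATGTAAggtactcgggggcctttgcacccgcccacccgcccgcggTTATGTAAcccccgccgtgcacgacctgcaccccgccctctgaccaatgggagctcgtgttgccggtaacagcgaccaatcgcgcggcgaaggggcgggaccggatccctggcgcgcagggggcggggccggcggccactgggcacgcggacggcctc
Nr1d1, chr11:98775378-98775627, - strand: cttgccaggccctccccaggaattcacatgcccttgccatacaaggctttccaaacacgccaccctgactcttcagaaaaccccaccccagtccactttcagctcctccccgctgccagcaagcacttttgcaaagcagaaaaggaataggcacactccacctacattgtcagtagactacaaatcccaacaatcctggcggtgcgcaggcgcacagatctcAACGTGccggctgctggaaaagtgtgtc
Arntl, chr7:113207531-113207557, + strand: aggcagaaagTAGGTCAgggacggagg
The E-box lay 166 bases before the start in Per1 and 60 in Cry1. The annotated starts used for Per1 and Arntl lie well inside the gene spans given above, not at their edge. The E′-box lay 79 bases before the start in Cry1, 166 in Cry2 and 28 in Nr1d1. The D-boxes of Per3 lay 205 and 158 bases before its start.

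The first question was how the 10 genes differed between ZT5 and ZT12 over all 4 genotypes. The activators Arntl and Clock and the repressor gene Nr1d1 fell from ZT5 to ZT12 in both RNA and RPF, while Per1, Per2, Per3 and Cry1 rose. Of the 10 members, 8 differed in RNA, 4 up and 4 down, by edgeR's quasi-likelihood test with Benjamini-Hochberg adjustment over all genes at 0.05. The background was 22.3% of tested genes, 9.71% up and 12.5% down. In RPF all 10 differed, 6 up and 4 down, where 31.8% of tested genes did, 13.6% up and 18.2% down. DESeq2 called 9 in RNA and 10 in RPF. Npas2 passed the filter on low counts through livers in which it is high, so its calls carry no weight, and without it 7 of 9 members differed in RNA (4 up, 3 down) and 9 of 9 in RPF (6 up, 3 down). In 12 against 12 livers the RNA levels of Per1, Per2 and Per3 did not overlap, 3 of 10 members, as for 1.31% of all tested genes. The RPF levels of these and of Npas2 did not overlap, 4 of 10 members and 3 of 9 without Npas2, as for 1.95% of all tested genes.

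**Figure D1:**
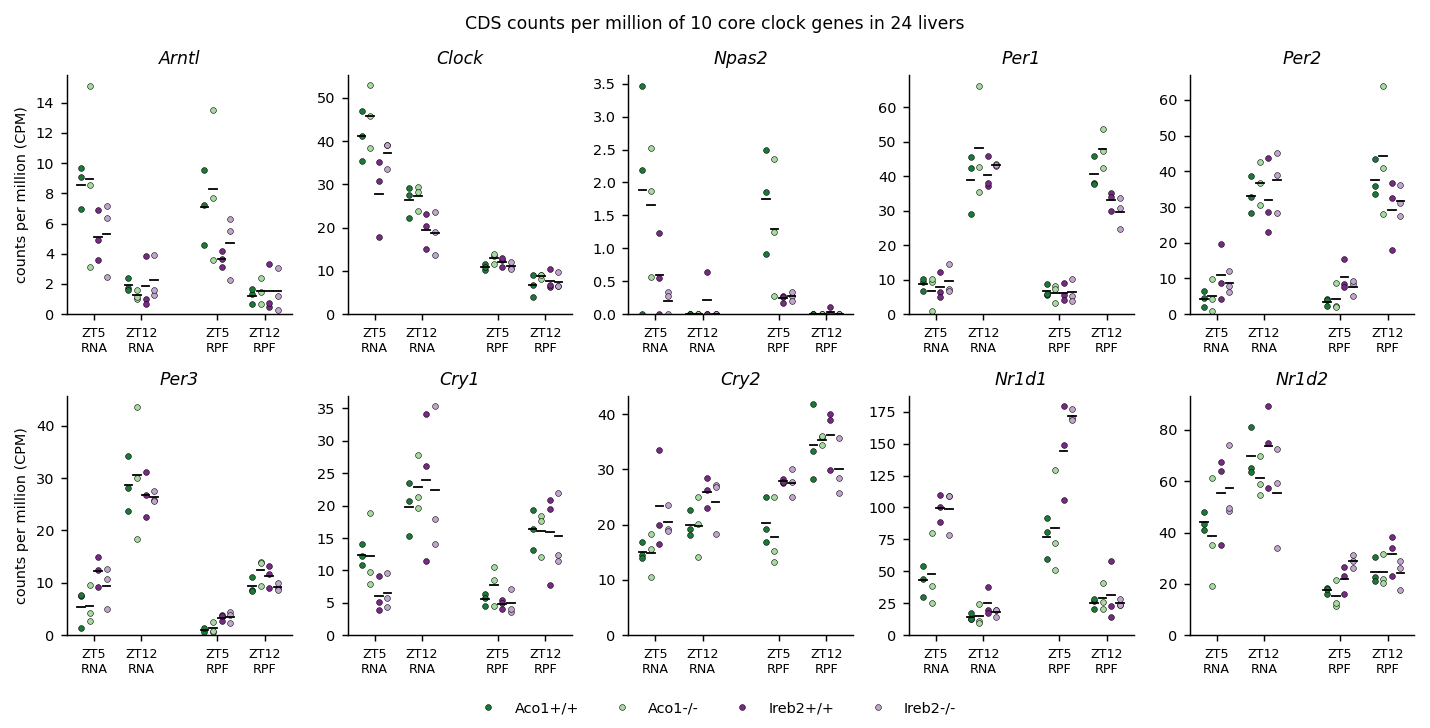
Level of each of the 10 clock genes in every liver, in CPM on a linear axis that starts at 0, at ZT5 and ZT12, in RNA and in RPF, with 1 point per liver coloured by genotype and a short bar at the mean of each genotype's 3 livers. Per1, Per2 and Per3 separate fully by time in both kinds of library, and Arntl and Nr1d1 lie mostly lower at ZT12.

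Arntl encodes BMAL1, the partner without which the activating pair does not form. Its RNA ran from 2.47 through a median of 6.95 to 15.1 CPM at ZT5 and from 0.686 through 1.60 to 3.93 CPM at ZT12. These levels rest on 8 to 41 counts per library at ZT5 and on 1 to 8 at ZT12. The groups overlapped only at their edges, and Arntl RNA fell by 1.95 (SE 0.28, adjusted p = 1.91e-06). Its footprints ran from 2.24 through 5.02 to 13.5 CPM at ZT5 and from 0.309 through 1.26 to 3.32 CPM at ZT12, and fell by 1.90 (SE 0.30, adjusted p = 6.43e-05). The highest Arntl level of all 12 livers at ZT5, 15.1 CPM in RNA and 13.5 CPM in RPF, was in Aco1-/- replicate 1.

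Clock encodes the DNA-binding partner of BMAL1 that also acetylates histones. Clock RNA had a median of 38.7 CPM at ZT5 (17.9 to 52.9) and of 23.4 CPM at ZT12 (13.6 to 29.5), and it fell by 0.72 (SE 0.10, adjusted p = 1.03e-06). Clock footprints lay between 10.2 and 13.9 CPM at ZT5 and between 4.06 and 10.4 CPM at ZT12, so that only the top of the later group touched the earlier one. They fell by 0.59 (SE 0.11, adjusted p = 0.000216). Npas2 encodes a paralogue that can stand in for CLOCK, and it was close to the detection limit. Its RNA summed to 41 counts over the 12 ZT5 libraries and to 1 count over the 12 ZT12 libraries, and its footprints to 59 counts and 1 count. In both kinds of library 11 of the 12 livers were at 0 counts at ZT12. At ZT5 its footprints held 1 to 18 counts per liver in the Aco1 line and 1 to 3 in the Ireb2 line. It thus entered the tests through the ZT5 livers, mostly those of the Aco1 line, so neither a fold nor a p is given and its calls are counted but not read.

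Per1 encodes a PERIOD protein, which carries CRY proteins into the repressing complex. Its RNA ran from 0.840 through a median of 8.31 to 14.5 CPM at ZT5 and from 28.9 through 42.8 to 66.2 CPM at ZT12, a rise of 2.36 (SE 0.21, adjusted p = 8.12e-08). Its footprints ran from 3.31 through 5.67 to 10.2 CPM and then from 24.7 through 36.4 to 53.7 CPM, a rise of 2.60 (SE 0.15, adjusted p = 1.13e-11). The lowest ZT12 liver lay well above the highest ZT5 liver in both.

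Per2 encodes the PERIOD protein whose loss disturbs rhythms most among single Per genes. Per2 RNA was at 0.840, 6.35 and 19.6 CPM (lowest, median and highest) at ZT5 and at 23.1, 34.7 and 45.2 CPM at ZT12, and rose by 2.29 (SE 0.24, adjusted p = 1.05e-06). Per2 footprints were at 2.07, 6.40 and 15.4 CPM and then at 17.9, 34.8 and 64.0 CPM, and rose by 2.62 (SE 0.22, adjusted p = 4.4e-08). The lowest Per1 and Per2 RNA levels at ZT5, each 0.840 CPM on 2 counts, came from Aco1-/- replicate 1, the liver that was highest for Arntl.

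Per3 encodes the PERIOD protein that the loop can spare. Its RNA was at 1.33, 8.40 and 15.0 CPM at ZT5 and at 18.3, 27.1 and 43.6 CPM at ZT12, and rose by 1.93 (SE 0.21, adjusted p = 1.05e-06). Its footprints were at 0.552, 2.44 and 4.39 CPM and then at 8.38, 9.65 and 14.0 CPM, and rose by 2.48 (SE 0.16, adjusted p = 5.89e-12). Both kinds of library thus separated the 2 times in every liver. Uts2 overlaps Per3 in the annotation used, and a strand setting for the counting is not given in the sources used here.

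Cry1 and Cry2 encode the cryptochromes, the proteins that silence CLOCK:BMAL1 when bound to it. Cry1 RNA had a median of 9.43 CPM at ZT5 (3.87 to 18.9) and of 21.1 CPM at ZT12 (11.4 to 35.4), and rose by 1.36 (SE 0.22, adjusted p = 9.13e-05). Cry1 footprints had medians of 5.17 CPM (3.62 to 10.5) and 17.1 CPM (7.68 to 21.9), and rose by 1.49 (SE 0.17, adjusted p = 4.5e-07). The ranges of Cry1 overlapped across the 4 genotypes, yet within each genotype the 3 ZT12 livers were all above the 3 ZT5 livers in both kinds of library. Cry2 behaved less clearly. Its RNA medians were 17.6 and 22.8 CPM in ranges that overlapped widely, and its RNA difference of 0.31 (SE 0.12) missed the threshold at an adjusted p of 0.0506. Cry2 footprints had medians of 25.0 CPM (13.3 to 30.1) and 35.04 CPM (25.8 to 41.8), and rose by 0.57 (SE 0.09, adjusted p = 3.02e-05).

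Nr1d1 encodes REV-ERBα, the main repressor of Arntl, and Nr1d2 the related REV-ERBβ. Nr1d1 RNA was at 25.6, 79.3 and 110 CPM at ZT5 and at 9.52, 17.4 and 37.7 CPM at ZT12, and fell by 1.89 (SE 0.21, adjusted p = 2.97e-06). Nr1d1 footprints were at 50.8, 118 and 179 CPM and then at 14.3, 24.7 and 58.1 CPM, and fell by 2.03 (SE 0.21, adjusted p = 1.44e-06). Nr1d1 and Arntl, the repressor gene and its target, were thus both lower at ZT12 than at ZT5. Nr1d1 shares its locus with Thra, so that some of its counts are uncertain where strand was not used. Nr1d2 went the other way by little. Its RNA medians were 48.3 and 64.4 CPM, and the difference of 0.42 (SE 0.17) missed the threshold at an adjusted p of 0.0783. Nr1d2 footprints had medians of 20.0 CPM (11.6 to 31.3) and 24.8 CPM (17.5 to 38.4), and rose by 0.37 (SE 0.12, adjusted p = 0.0201). The means of Nr1d2 went the other way in Ireb2-/-, with footprints at 28.8 CPM at ZT5 and 24.3 CPM at ZT12 and a difference of -0.25 (SE 0.23, adjusted p = 0.594).

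The second question was whether footprints changed by another amount than RNA, which is the change of translational efficiency (TE, RPF against RNA within the same mouse). None of the 10 members passed the edgeR test of that difference over the 4 genotypes, where 0.486% of tested genes did. DESeq2 called 0 members, and 2, Per3 and Cry2, had an unadjusted p under 0.05, as did 9.4% of tested genes. For Per3 footprints rose by 0.53 more than RNA (SE 0.20, 95% interval 0.12 to 0.93, adjusted p = 0.323), and for Cry2 by 0.27 more (SE 0.13, adjusted p = 0.529). For the other 7 members with enough counts the TE difference lay between -0.16 (Nr1d1, SE 0.14) and 0.24 (Per2, SE 0.18). Arntl stood at -0.03 (SE 0.26) and Per1 at 0.15 (SE 0.16). Npas2 had too few counts at ZT12 for a TE to be read. When all columns of the files, including 1 that was not identified, were counted in place of the CDS, the TE difference of Per3 was 0.79 and passed the threshold.

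**Figure D2:**
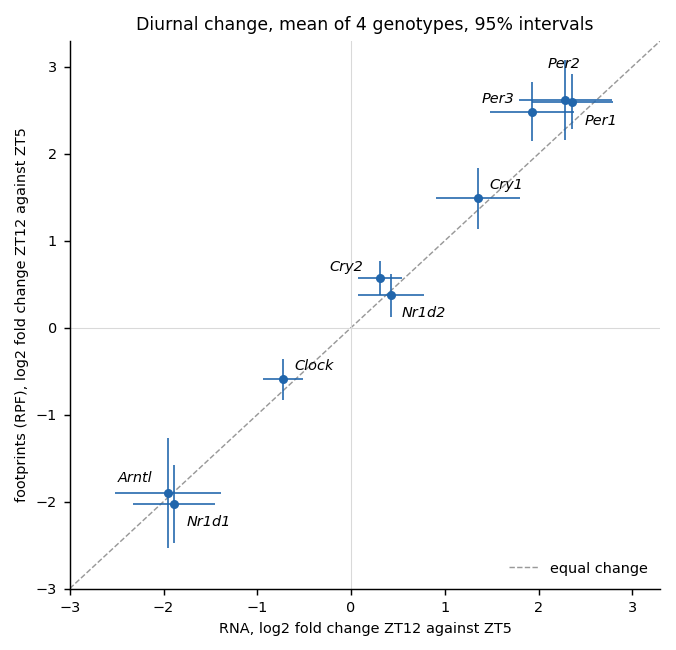
Difference ZT12 minus ZT5 over the 4 genotypes on the log2 scale, RNA on the x axis and RPF on the y axis, for the 9 clock genes other than Npas2, with 95% intervals and the diagonal of equal change. The points lie close to the diagonal, with Per3 farthest above it at 1.93 in RNA and 2.48 in RPF.

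The difference by time was also taken within each genotype, with 3 mice at each time. Per1 and Per3 passed in RNA and in RPF in all 4 genotypes, and in each of these Per1, Per2, Per3, Cry1 and Nr1d1 showed no overlap between the 3 ZT5 and the 3 ZT12 livers. In RNA 6 of 10 members passed in Aco1+/+, 7 in Aco1-/-, 3 in Ireb2+/+ and 5 in Ireb2-/-, where 7.05%, 5.15%, 2.29% and 2.77% of tested genes did. In RPF 8, 8, 5 and 5 members passed in the same order, against 6.64%, 12.1%, 7.53% and 5.73% of tested genes. Without Npas2 it was 5, 6, 3 and 5 of 9 members in RNA and 7, 7, 5 and 5 in RPF. DESeq2 called 5, 7, 5 and 6 members in RNA and 7, 8, 5 and 5 in RPF. Levels did not overlap for 9, 8, 5 and 6 members in RNA, against 26%, 21.1%, 19.1% and 21.9% of tested genes. In RPF they did not overlap for 10, 9, 8 and 7 members, against 27.1%, 27.2%, 27.1% and 23.6%. Without Npas2 these were 9, 7, 5 and 6 of 9 members in RNA and 9, 8, 7 and 6 in RPF. In TE no member passed in any genotype by edgeR or DESeq2, against 0.0187%, 0.15%, 0.533% and 0.00935% of tested genes, and 1 (Cry1), 0, 1 (Per3) and 0 had an unadjusted p under 0.05, as did 7.49%, 8.05%, 8.22% and 4.52% of tested genes.

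Arntl shows how the genotypes lined up. In the order of replicates 1, 2 and 3, its RNA at ZT5 was 9.66, 9.06 and 6.97 CPM in Aco1+/+ and 15.1, 8.56 and 3.10 CPM in Aco1-/-. At ZT12 it was 2.42, 1.74 and 1.57 CPM in Aco1+/+ and 1.02, 1.15 and 1.63 CPM in Aco1-/-. It fell by 2.20 (SE 0.46, adjusted p = 0.00177) in Aco1+/+ and by 2.63 (SE 0.50, adjusted p = 0.00088) in Aco1-/- livers. In Ireb2+/+ it was 3.59, 4.91 and 6.92 CPM at ZT5 against 1.00, 0.686 and 3.87 CPM at ZT12, and in Ireb2-/- 6.39, 7.14 and 2.47 CPM against 1.25, 1.63 and 3.93 CPM. In both genotypes of the Ireb2 line replicate 3 at ZT12 overlapped the ZT5 livers. There the differences of -1.72 (SE 0.59, adjusted p = 0.143) and -1.26 (SE 0.56, adjusted p = 0.283) missed the threshold.

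Nr1d1 RNA passed in the Ireb2 line and not in the Aco1 line, while its footprints passed in all 4 genotypes. Its RNA at ZT5 was 29.9, 44.3 and 54.5 CPM in Aco1+/+ and 25.6, 38.4 and 79.9 CPM in Aco1-/-, and 110, 88.4 and 100 CPM in Ireb2+/+ and 78.7, 109.3 and 109.1 CPM in Ireb2-/-. At ZT12 it was 17.3, 12.6 and 12.6 CPM in Aco1+/+, 11.2, 9.52 and 24.8 CPM in Aco1-/-, 19.6, 37.7 and 17.4 CPM in Ireb2+/+ and 20.0, 19.6 and 14.4 CPM in Ireb2-/-. All ZT5 livers of the Ireb2 line stood far above their ZT12 livers, and the ZT5 livers of the Aco1 line, though above theirs, were lower and more spread. The RNA difference was -1.60 (SE 0.51, adjusted p = 0.112) in Aco1+/+ and -1.59 (SE 0.50, adjusted p = 0.125) in Aco1-/-, neither of which passed. It fell by 1.92 (SE 0.23, adjusted p = 9.08e-05) in Ireb2+/+ and by 2.44 (SE 0.24, adjusted p = 9.02e-06) in Ireb2-/-. The change by time did not pass as different between the lines for Nr1d1 RNA (-0.58, SE 0.42, adjusted p = 0.759) or Arntl RNA (0.92, SE 0.61, adjusted p = 0.723).

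Per2 passed in RPF in all 4 genotypes and in RNA in all but Ireb2+/+. Its RNA rose by 2.79 (SE 0.44, adjusted p = 0.0012) in Aco1+/+, by 2.77 (SE 0.41, adjusted p = 0.00089) in Aco1-/- and by 2.07 (SE 0.40, adjusted p = 0.0137) in Ireb2-/-. In Ireb2+/+ the difference was 1.52 (SE 0.41, adjusted p = 0.0807). Its footprints rose by 3.42 (SE 0.46) in Aco1+/+ and 3.44 (SE 0.45) in Aco1-/-, and by 1.51 (SE 0.31) in Ireb2+/+ and 2.10 (SE 0.35) in Ireb2-/-.

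Single libraries carried some of the counts within a genotype. In RNA 4 members passed in Aco1-/- without replicate 1 at ZT5 or without replicate 3 at ZT12. In Aco1+/+ 2 passed without replicate 2 at ZT12, in Ireb2-/- 3 without replicate 2 at ZT5, and in Ireb2+/+ 5 without replicate 3 at ZT5. In RPF 3 passed in Ireb2-/- without replicate 2 at ZT5, and in Ireb2+/+ 3 without replicate 1 at ZT12 and 2 without replicate 1 at ZT5.

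Arntl against Per2 puts the activating and the repressing arm in 1 number per liver, the log2 ratio of their CPM with a prior count. In RNA it ran from -1.64 through a median of 0.18 to 4.00 at ZT5 and from -5.08 through -4.21 to -3.46 at ZT12, so every ZT12 liver was below every ZT5 liver. In RPF it ran from -2.04 through -0.24 to 2.47 and then from -6.42 through -4.57 to -3.12. Among the ZT5 livers the mean RNA value of the 3 replicates was 1.14 in Aco1+/+, 1.10 in Aco1-/-, -0.86 in Ireb2+/+ and -0.79 in Ireb2-/-. The 3 Aco1-/- livers spanned -1.63 to 4.00, the widest spread of any genotype at either time in RNA. The ratio is a description, since both genes had been seen to change.

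The third question was whether loss of IRP1 or IRP2 changed the clock genes. None of the 10 members passed the test between knockout and control in either line, at either time, in RNA or in RPF. This holds by edgeR and by DESeq2, and 0 members had an unadjusted p under 0.05 in any of the 8 comparisons. Of all tested genes, 0% passed in RNA and 0.00935% in RPF for Aco1-/- against Aco1+/+ at ZT5, and 0.00935% and 0.299% at ZT12. For Ireb2-/- against Ireb2+/+ it was 0.00935% and 0.0654% at ZT5, and 0.0187% and 0.028% at ZT12. Without Npas2, the 9 members' differences lay between -0.54 (Nr1d1, Ireb2 line at ZT12) and 0.53 (Arntl, Ireb2 line at ZT12) in RNA. In RPF they lay between -0.50 (Per2, Ireb2 line at ZT5) and 0.49 (Cry1, Aco1 line at ZT5).

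The intervals show what size of change 3 mice against 3 could leave undetected. For Clock RNA at ZT5 the difference Aco1-/- minus Aco1+/+ was 0.15 with a 95% interval of -0.21 to 0.51, and for Per2 RNA 0.17 with an interval of -0.98 to 1.33. For Nr1d1 RNA at ZT5 the difference Ireb2-/- minus Ireb2+/+ was -0.01 with an interval of -0.44 to 0.42. The same difference at ZT12 was -0.54 with an interval of -1.08 to 0.01. For Arntl RNA at ZT12 the interval ran from -0.96 to 2.02 in the Ireb2 line and from -1.74 to 0.83 in the Aco1 line. For Nr1d1 RNA in the Aco1 line it ran from -0.84 to 1.22 at ZT5 and from -1.06 to 1.48 at ZT12. At ZT5 a change of 1 log2 unit was therefore outside the interval for Clock RNA in the Aco1 line and Nr1d1 RNA in the Ireb2 line. It was not outside the other intervals given here, for Nr1d1, Arntl and Per2.

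The difference by time in the knockouts was also set against that in their controls. No member passed in either line in RNA or RPF by edgeR or DESeq2, as was so for 0% of tested genes in all 4 comparisons. At an unadjusted p under 0.05 there were 0 in RNA and 0 in RPF in the Aco1 line, and 0 in RNA and 1, Nr1d2, in RPF in the Ireb2 line, where 3.98% of tested genes were in RPF. For Nr1d2 footprints the difference was -0.77 (SE 0.31, adjusted p = 1). Without Npas2, the differences lay between -0.52 and 0.55 in RNA and between -0.77 and 0.59 in RPF over both lines.

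**Figure D3:**
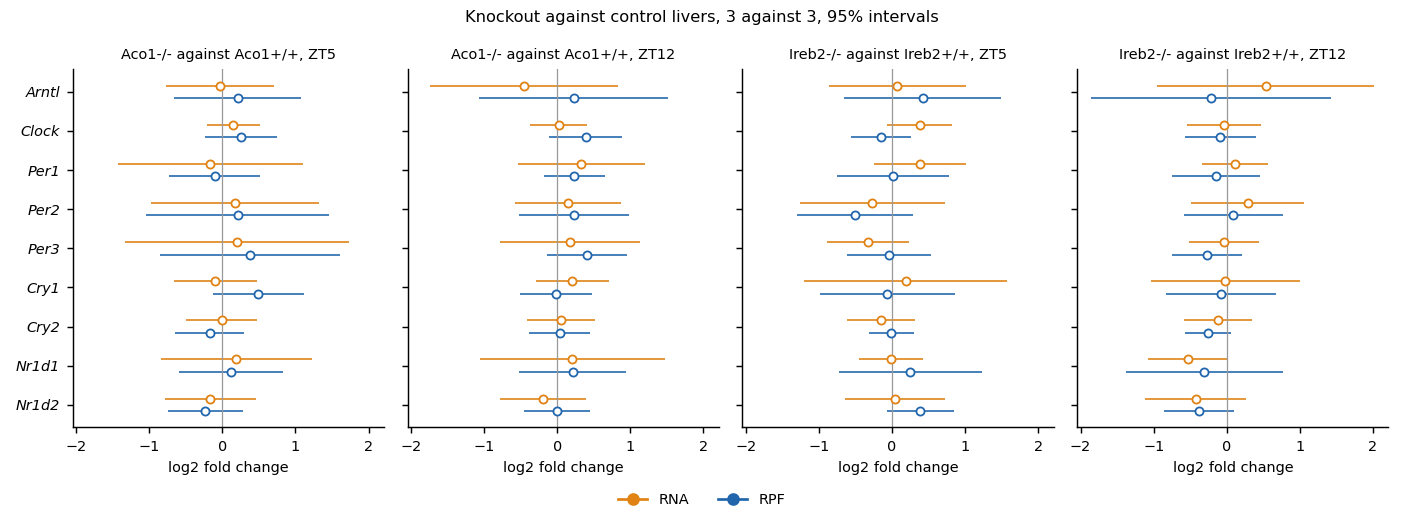
Difference knockout minus control on the log2 scale with 95% intervals for the 9 clock genes other than Npas2, in each line, at ZT5 and ZT12, in RNA and in RPF, with open points where the adjusted p was not under 0.05. All points lie between -0.54 and 0.53 and none passed the adjusted test.

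The ZT5 levels of several members stood apart between the 2 mouse lines, so the lines were compared with both genotypes of each, a comparison added after the values had been seen. Each line had its own controls, so line and anything else that differed between the groups of mice cannot be told apart. At ZT5 Per2, Per3, Cry2, Nr1d1 and Nr1d2 footprints were higher in the Ireb2 line. In RPF 6 of 10 members passed, and 5 of 9 without Npas2, where 9.92% of tested genes did and 4.35% were higher in the Ireb2 line. In RNA only Nr1d1 passed, 1 of 10, where 2.15% of tested genes did and 1.17% were higher in the Ireb2 line. Yet 8 of 10 members in RNA had an unadjusted p under 0.05, as did 15.9% of tested genes. In RPF it was 7, against 25.9% of tested genes. Without Npas2 it was 7 and 6 of 9. Of these, Nr1d1, Per2, Per3 and Cry2 RNA was higher in the Ireb2 line, while Cry1, Clock and Arntl RNA was lower. Arntl footprints were also lower, with a difference of -0.97 (SE 0.35, adjusted p = 0.0829). DESeq2 called 5 members in RPF and 2 in RNA. At ZT12 no member passed by edgeR or DESeq2, against 0.636% of tested genes in RNA and 2.06% in RPF, with 1 member each at an unadjusted p under 0.05 (Clock in RNA, Per1 in RPF), as for 11.6% and 16.2% of tested genes.

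Nr1d1 RNA at ZT5 ran from 25.6 through 41.3 to 79.9 CPM in the Aco1 line and from 78.7 through 105 to 110 CPM in the Ireb2 line, higher by 1.13 (SE 0.26, adjusted p = 0.034). Its footprints ran from 50.8 through 76.5 to 130 CPM and from 106 through 169 to 179 CPM, higher by 0.97 (SE 0.29, adjusted p = 0.041). Only Aco1-/- replicate 3 reached into the range of the Ireb2 line. Per3 footprints at ZT5 ran from 0.552 through 0.928 to 2.50 CPM in the Aco1 line and from 2.37 through 3.72 to 4.39 CPM in the Ireb2 line, higher by 1.72 (SE 0.30, adjusted p = 0.0015). Per2 footprints ran from 2.07 through 3.22 to 8.62 CPM and from 5.20 through 8.51 to 15.4 CPM, higher by 1.21 (SE 0.36, adjusted p = 0.04). At ZT12 the medians of Per3 footprints were 10.3 CPM in the Aco1 line and 9.49 CPM in the Ireb2 line, and the ranges overlapped almost fully. Cry2 footprints at ZT5 were higher by 0.56 (SE 0.14, adjusted p = 0.0112) and those of Nr1d2 by 0.63 (SE 0.17, adjusted p = 0.0239) in the Ireb2 line.

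The rise of Per3 footprints to ZT12 was smaller in the Ireb2 line than in the Aco1 line, by a difference of -1.83 (SE 0.35, adjusted p = 0.0058). It was the 1 member of 10 that passed this comparison in RPF, where 3.19% of tested genes did, and DESeq2 called 3. Per2 at -1.63 (SE 0.44, adjusted p = 0.0501) and Cry2 at -0.65 (SE 0.19, adjusted p = 0.052) missed the threshold, and 5 members had an unadjusted p under 0.05, as did 19.1% of tested genes. In RNA 0 members passed by edgeR or DESeq2, against 0.00935% of tested genes, and 2 (Cry1 and Per3) had an unadjusted p under 0.05, as did 8.71% of tested genes. Between the controls alone, Ireb2+/+ against Aco1+/+, no member's difference by time passed by edgeR or DESeq2, against 0% of tested genes in RNA and 0.0561% in RPF. There 1 member in RNA (Per3) and 3 in RPF (Npas2, Per2 and Per3) had an unadjusted p under 0.05, as did 7.08% and 10.1% of tested genes.

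Depth and a few markers moved with line. At ZT5 the median RPF depth was 5294272.5 CDS counts in the Aco1 line and 8335721.5 in the Ireb2 line, and at ZT12 it was 8798532.5 and 4669502. In RPF at ZT5, 1 of 4 hepatocyte, 1 of 4 sinusoidal and 1 of 4 stellate markers were higher in the Ireb2 line, beside 4.35% of all tested genes. No marker was higher in RNA, beside 1.17% of all tested genes. The part of depth and of these markers in the clock values was not tested. With the controls alone at ZT5, 0 members passed in RNA and 2 in RPF, Per3 and Npas2, against 0.187% and 3.04% of tested genes. With the knockouts alone 0 and 0 passed, against 0.112% and 0.467%. Of the 9 members without Npas2, 5 in RNA between the controls and 1 in RNA and 5 in RPF between the knockouts had an unadjusted p under 0.05, as did 11.7%, 9.29% and 12.7% of tested genes, and DESeq2 called 0, 0 and 1. Single ZT5 livers moved these counts. In RNA 0 members passed without replicate 1 or 2 of Aco1+/+, 1 or 2 of Aco1-/-, 1 or 3 of Ireb2+/+, or 2 or 3 of Ireb2-/-. There 2 passed without replicate 3 of Aco1+/+ or without the ZT12 replicate 2 of Ireb2+/+, and 4 without replicate 3 of Aco1-/-. In RPF 3 passed without replicate 1 or 2 of Aco1+/+, 1 or 2 of Aco1-/-, 1 of Ireb2+/+ or 3 of Ireb2-/-. For the change by time between lines in RPF, 3 passed without the ZT5 replicate 3 of Aco1+/+ or of Aco1-/- or the ZT12 replicate 3 of Aco1-/-. There 2 passed without the ZT12 replicate 1 of Aco1+/+, replicate 2 or 3 of Ireb2+/+ or replicate 3 of Ireb2-/-, or without the ZT5 replicate 2 of Ireb2+/+.

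**Figure D4:**
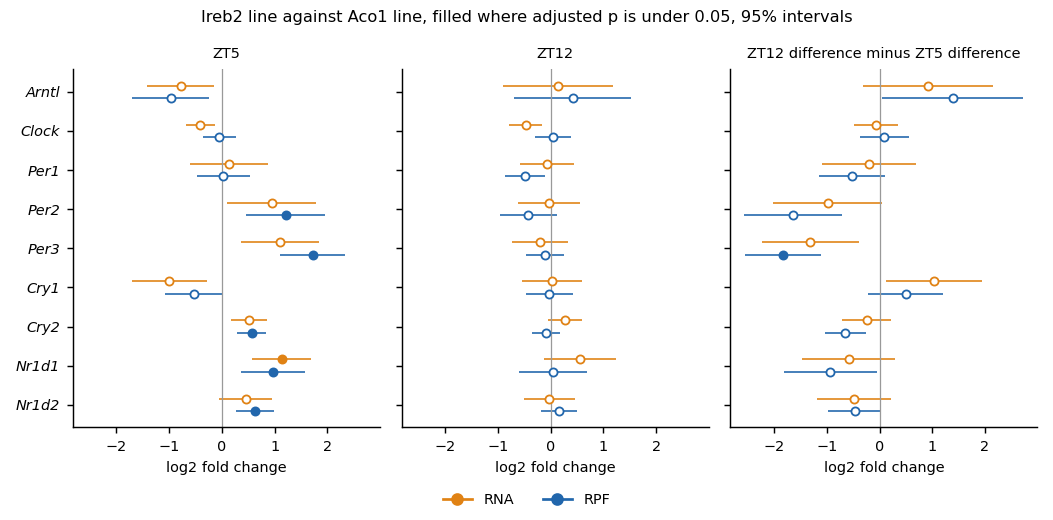
Difference Ireb2 line minus Aco1 line on the log2 scale with 95% intervals for the 9 clock genes other than Npas2, at ZT5, at ZT12, and as the ZT12 difference minus the ZT5 difference, in RNA and RPF, with filled points for adjusted p under 0.05. The ZT5 points reach from Cry1 RNA, the lowest, to 1.72 for Per3 RPF, while the ZT12 points lie between -0.49 and 0.55.

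Footprints on the 5′ UTR were read beside those on the CDS, since the files count both. The share of counts in the 5′ UTR column, out of 5′ UTR and CDS together and pooled over the 24 libraries of a kind, was 8.13% in RNA and 2.18% in RPF over all genes. Nr1d1 had 34.5% in RNA and 20.9% in RPF, and Clock had 15.0% and 26.3%. Cry1 stood at 14.6% and 17.4%, Per3 at 14.6% and 15.3%, and Arntl at 15.6% and 12.5%. Lower shares were found for Per1 (7.90% and 5.60%), Nr1d2 (5.23% and 8.10%) and Per2 (4.78% and 2.80%). Clock footprints had a 5′ UTR share of between 12.3% and 38.9% in single libraries, and Nr1d1 footprints of between 12.3% and 27.1%. Cry2 was listed at 0 counts in the 5′ UTR column in every library, with 4170 RPF counts on its CDS, and Npas2 had 1 count there in all.

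The time difference of 5′ UTR against CDS footprints could be tested for 7 members among 3149 genes with enough counts. None of the 7 passed by edgeR, against 2.79% of tested genes, and Nr1d1 and Per2 had an unadjusted p under 0.05, as did 17.1% of tested genes. For Nr1d1 the 5′ UTR footprints fell by 0.28 more than the CDS footprints (SE 0.14, adjusted p = 0.272). For Per2 the ZT5 libraries held 7 counts in the 5′ UTR column in all, and its adjusted p was 0.125. This comparison was not run in DESeq2.

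**Figure D5:**
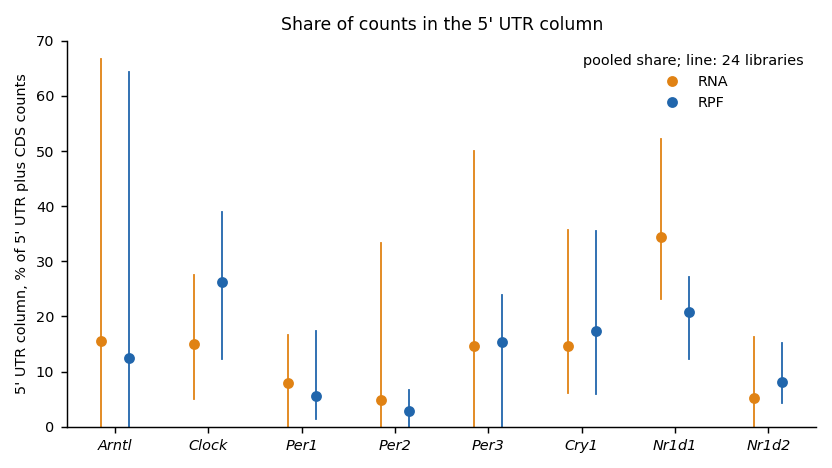
Share of counts in the 5′ UTR column out of 5′ UTR and CDS, in percent, pooled over 24 libraries, for the 8 clock genes with counts in both, in RNA and RPF, with points for the pooled share and lines from the lowest to the highest single library. Nr1d1 stands highest in RNA at 34.5% and Clock highest in RPF at 26.3%.

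The other genes of the pathway were counted in 2 lists. Of the 9 genes of the accessory loop, such as the D-box factors and further repressors, 4 rose from ZT5 to ZT12 in RNA and none fell, where 9.71% of all tested genes rose, with a median of 0.70 against -0.04 over all tested genes. Ciart, a repressor of CLOCK:BMAL1, rose by 3.05 (SE 0.31, adjusted p = 5.28e-10). Tef, a D-box activator, rose by 0.96 (SE 0.11, adjusted p = 5.59e-08). In RPF 5 rose and none fell, where 13.6% of all tested genes rose, and Ciart rose by 3.31 and Tef by 1.36. No gene of the list passed in TE.

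The list of 20 modifiers and partners of clock proteins held 19 genes with enough counts. In RNA 3 rose and 2 fell, beside 22.3% of all tested genes that passed in either direction, and the median was -0.01. Usp2, a deubiquitinase, rose by 3.45 (SE 0.14, adjusted p = 1.39e-20). Prkaa2, a catalytic subunit of AMP-activated kinase, rose by 0.60 (SE 0.08, adjusted p = 2.34e-07), and Sfpq, an RNA-binding partner of PER proteins, by 0.71 (SE 0.09, adjusted p = 2.57e-07). Fbxl21, an F-box protein that acts on cryptochromes, fell by 1.59 (SE 0.31, adjusted p = 0.000152), and Btrc, an F-box protein that marks PER proteins for breakdown, by 0.43 (SE 0.11, adjusted p = 0.00337). In RPF 3 rose and 3 fell, beside 31.8% of all tested genes, and none passed in TE. Both counts are near the share over all genes. Between knockout and control no gene of either list passed in RNA or RPF at either time. Between the lines at ZT5, 3 of 9 accessory genes were higher in the Ireb2 line in RNA and 3 of 9 in RPF, beside 1.17% and 4.35% of all tested genes. Of the 19 modifiers 1 was higher in RNA, and 2 were higher and 1 lower in RPF, beside 2.15% and 9.92% that passed in either direction. With the controls alone or the knockouts alone 0 of 9 accessory genes passed in RNA or RPF. Of the modifiers 1 was higher in RNA and 1 in RPF with the controls alone, beside 0.187% and 3.04% of all tested genes that passed in either direction. With the knockouts alone 0 modifiers passed, beside 0.112% and 0.467% of all tested genes. At ZT12 no gene of either list passed between the lines. In the change by time between the lines, 1 modifier passed in RNA and 1 in RPF, beside 0.00935% and 3.19% of all tested genes, and no accessory gene did. Between the controls alone no gene of either list passed in RNA or RPF.

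For 1 gene of each arm the genes with the most similar RNA course over the 24 libraries were sought, by the root mean square difference of log2 levels after each gene's own mean was removed. For Arntl these were Tubb2a at 0.588, Insig2 at 0.621 and Chka at 0.638, all lower at ZT12. For Nr1d1 they were Arrdc3 at 0.567, Hmgcs1 at 0.583 and Camk1d at 0.601, again lower at ZT12. For Per2 they were Thrsp at 0.707, Usp2 at 0.781 and Por at 0.811, all higher at ZT12. Hmgcs1, an enzyme of cholesterol synthesis, had medians of 465 CPM at ZT5 and 165 CPM at ZT12. Thrsp, a regulator of lipid synthesis, had medians of 153 and 739 CPM. The measure describes likeness in these libraries and was not tested.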

How the data were processed

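The deposited files hold raw counts per gene for each sequencing run, made by the authors and not normalised. Per the study's methods, adapters were removed with cutadapt 3.5, reads were filtered by quality and size, rRNA and tRNA reads were removed with Bowtie2, and the rest were mapped with STAR 2.70f to the mouse genome GRCm38. The counting tool and strand setting are not given in the sources used here. The columns carry no names and were read from their values as 5′ UTR, CDS and 3′ UTR. A further column could not be identified. It held 7.76% to 22.9% of the RNA counts and 1.84% to 5.01% of the RPF counts per library, and it enters the alternative with all columns. The CDS column was used, and the 77 runs were summed into 48 libraries (29 had 2 runs).

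Counts were scaled by the upper quartile and filtered with filterByExpr (minimum 10, total 15), and tested with edgeR 4.0.16 in R 4.3.3 (quasi-likelihood, robust, Benjamini-Hochberg adjustment over all 10696 genes, threshold 0.05). Differences within a genotype and between knockout and control were fitted per line on 12 mice, and means over genotypes and line comparisons on all 24. TE was fitted on RPF and RNA with a term for the mouse. DESeq2 1.42.0, limma 3.58.1 (prior count 0.5), TMM scaling, no filter, the first run alone, all columns, each mouse left out and a replicate block were alternatives. Scripts were tested on simulated data, and figures and summaries made with Python 3.11.15, numpy 2.4.6, pandas 2.3.3 and matplotlib 3.10.9.

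The members and lists were chosen with earlier results of these data known. All 10 members are named. Of each pathway list up to 3 genes in each direction are named, by smallest adjusted p in RNA. For Arntl, Nr1d1 and Per2 the 3 most similar genes are named, with members and predicted genes left out. A gene that this rule names is not reported here. The line comparisons were added after the data were seen. Each library comes from 1 mouse, with 3 mice a group. A test sets a difference against the spread between mice of the same group, estimated over all mice fitted together. Replicate numbers are shared between groups but are not stated to mark a litter or day. Without coding lengths in the files, levels are not compared between genes, and shares and low counts carry counting error beside the spread between mice.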

Additional observations from a re-analysis of the deposited data

Results flagged for a closer look

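Per3 footprints differed between the mouse lines in their change from ZT5 to ZT12, by a test of that difference itself. The rise was smaller in the Ireb2 line, with a difference of -1.83 on the log2 scale (SE 0.35, adjusted p = 0.0058 by edgeR's quasi-likelihood test). The comparison was added after the data were seen. At ZT5 Per3 footprints held 3 to 9 counts per liver in the Aco1 line and 16 to 43 in the Ireb2 line. With the first sequencing run alone the difference was -1.41 and missed the threshold. Between the controls alone, Ireb2+/+ against Aco1+/+, it was -1.69 (adjusted p = 0.165) and also missed the threshold. It kept its direction and stayed past the threshold with TMM scaling, no filter on low counts, all columns counted, DESeq2 and each mouse left out in turn. Line and anything else that differed between the groups of mice cannot be told apart here.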

How the results depend on the processing

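Over the 4 genotypes, the 8 members called in RNA and the 10 called in RPF kept their direction and call under every alternative run and without any 1 mouse. Leaving out 1 mouse at a time, 8 to 10 members were called in RNA, 10 to 10 in RPF and 0 in TE. Over all genes 2081 to 2470 were then called in RNA, 3021 to 3670 in RPF and 29 to 128 in TE, where 52 were called with all mice. The lowest TE counts came without the ZT5 replicate 1 of Aco1+/+ (29) or Aco1-/- (33) or the ZT12 replicate 1 of Ireb2+/+ (34). The highest came without the ZT5 replicate 3 of Ireb2+/+ (128) or Aco1+/+ (82) or the ZT12 replicate 3 of Aco1-/- (82). TE calls over all genes were 218 with all columns counted, 7 by limma and 88 by DESeq2. With all columns 1 member, Per3, was called in TE in place of 0.

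Within Aco1+/+, 3 members were called in RNA with the first run alone in place of 6. Within Ireb2+/+, 5 were called with the first run alone, with all columns and by DESeq2 in place of 3. Without 1 mouse the RNA count was 2 to 8 in Aco1+/+, 4 to 7 in Aco1-/-, 2 to 5 in Ireb2+/+ and 3 to 6 in Ireb2-/-. The RPF count was 6 to 8, 7 to 9, 2 to 5 and 3 to 5.

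Between knockout and control no member was called under any alternative or without any 1 mouse. Between lines at ZT5, the 1 RNA call became 0 with the first run, the controls or the knockouts alone, 4 with all columns and 2 by DESeq2, and 0 to 4 without 1 mouse. The 6 RPF calls became 2 with the first run or the controls alone, 0 with the knockouts alone and 3 to 7 without 1 mouse. The 1 member whose change by time differed between lines in RPF became 0 with the first run alone, 2 with all columns, 3 by DESeq2, and 1 to 3 without 1 mouse. The cause was not tested in any of these.

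With replicate number as a block, 7, 8, 4 and 5 members were called in RNA (Aco1+/+, Aco1-/-, Ireb2+/+, Ireb2-/-) and 7, 9, 5 and 5 in RPF, 0 in TE and 0 between knockout and control, and no count moved by over 1.5 times. For same-numbered ZT5 and ZT12 mice of a genotype, the correlations of their deviations lay between -0.134 and 0.0802 in 24 pairs, none over 0.1. Same-numbered knockout and control mice were not compared in this way. Whether mice of a number shared a litter, day or preparation was not tested. Low counts limit what can be read for Npas2, with 11 of 12 livers at 0 counts at ZT12, and for Arntl, with 1 to 8 RNA counts there. The same limit holds for Per3 footprints at ZT5 in the Aco1 line, with 3 to 9 counts per liver. All counts of members in this section include Npas2.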
